A study of Rattus norvegicus with 6 samples.

Results

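rno-miR-122-5p (miR-122-5p below), the microRNA (miRNA) that dominates the small RNA of hepatocytes, was 1 of 758 rat miRNAs on the arrays and was chosen by its name in the array design, with its lower signal in malformed hindgut already known. The values that led to its choice are those of the malformed against the healthy group, so its levels are given below as a description and carry no p-value. The samples were pieces of terminal hindgut, 1 cm long, from Sprague Dawley rat fetuses at embryonic day 20. In the ARM group (anorectal malformation), dams had received 125 mg/kg of ethylenethiourea (ETU) into the stomach on gestational day 10, and the fetuses were malformed on inspection. ETU blocks thyroid peroxidase and disturbs formation of the caudal embryo in rats. In the control group, dams had been given distilled water and the fetuses were healthy. Each group had 3 samples, hybridised to 1-colour (Cy3) arrays. The labels assign 4 dams to ETU but give neither the dam of each fetus nor whether a sample is 1 animal, so the spread between samples may hold litter or technical effects, and exposure and malformation cannot be told apart. The pieces are whole tissue, and fewer cells of a type cannot be told apart from less of its RNA per cell.

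In vertebrates miR-122 is made from a single-copy precursor whose transcription depends on liver-enriched factors such as HNF4A, and it accumulates in hepatocytes to a level that few miRNAs reach in any cell. It represses messengers such as Cat-1 (Slc7a1), aldolase A and cyclin G1, it is required for normal cholesterol and lipid metabolism in mice, and it is released into blood plasma, where it serves as a marker of liver injury. It is not counted among the miRNAs of the gut wall. The fetal liver is also the main site of red cell production before birth, so red cell miRNAs are described beside it.

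The sequences show how the miRNAs of this locus relate to each other. Probe sequences were not at hand, so whether a probe also binds another RNA could not be checked. They are from RefSeq on build GRCr8, 5′ to 3′. The Mir122 hairpin lies at chr18:61028817-61028901 on the plus strand, the 5p arm at chr18:61028831-61028852 and the 3p arm at chr18:61028867-61028885. miR-3591 lies at chr18:61028831-61028850 on the minus strand. Capitals mark the seed (bases 2 to 8) in the mature sequences and both mature arms in the hairpin.
miR-122-5p: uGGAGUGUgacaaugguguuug
miR-122-3p: aACGCCAUcaucacacuaa
miR-3591: aACACCAUugucacacucca
Mir122 hairpin: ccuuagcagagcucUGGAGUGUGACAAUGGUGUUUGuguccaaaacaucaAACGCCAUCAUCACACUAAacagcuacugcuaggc

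Of the 758 miRNAs on the array, 685 had a RefSeq mature sequence under the same name, and 0 others of these shared the seed of miR-122-5p. The 2 arms of the 85-base hairpin are 14 bases apart. All 20 bases of miR-3591 are the reverse complement of the first 20 of miR-122-5p, so that it is read from the opposite strand of the same genomic bases. The whole Mir122 hairpin lies within the 109-base Mir3591 hairpin.

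The 6 arrays detected 207 to 246 miRNAs each, 22.3% to 26.3% of miRNA spots were well above background by the scanner software's own rule, and 0 were saturated. The 300 probes detected on every array had a 75th percentile of 203 to 221 in ARM and 225 to 290 in control, so the ARM arrays were dimmer before scaling, and levels below are scaled to it. Detected markers of the labelled tissue were those of intestinal epithelium, with 7 of 9 listed miRNAs detected on all 6 arrays, and of smooth muscle, with 2 of 2. ARM replicate 3 was on a slide of its own and the other 5 arrays on 1 slide, so differences from the fit are also given within that slide.

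miR-122-5p had 2 probes, each printed as 8 spots per array, which gives 96 spots in all. On the control arrays all 48 spots were well above background. The dimmer probe (A_26_P00001312) had a mean processed intensity, before scaling, of 102 in control replicate 1 (spots from 88.7 to 106), 177 in control replicate 2 (166 to 193) and 71.6 in control replicate 3 (67.7 to 76.8). The brighter probe (A_26_P00001313) had 191, 356 and 144 in the same arrays. Control replicate 2 was the highest and control replicate 3 the lowest with both probes, and the spots of 1 control array did not overlap those of another. Spots of a probe varied by 1.75% to 4.77% (coefficient of variation) within a control array. This leaves out spots with an outlier flag, 9 of the 48 control spots, and understates the spread of all spots. The spot ranges above hold the flagged spots too, and by them the spread within an array was small beside the differences between control arrays before scaling. Those differences include how bright each array was. After scaling, control replicates 1 and 3 were close, at 82.5 and 75.2 with the dimmer probe and 155 and 151 with the brighter. Control replicate 2 stayed apart, at 150 and 302.

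On the ARM arrays 8 of 48 spots were well above background, all of them spots of the brighter probe on ARM replicate 1. There the brighter probe averaged 32.3 (spots from 23.4 to 38.6). The dimmer probe averaged 10.9 on that array (7.35 to 14.3), and none of its spots was well above background. On ARM replicate 2 the probes averaged 0.61 and 4.04, and on ARM replicate 3 they averaged 3.40 and 7.72. No ARM spot of either probe reached the lowest spot of the same probe on any control array.

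The array design's negative control spots show what these low ARM values amount to. Their central range (5th to 95th percentile) was -2.37 to 6.20 on ARM replicate 2, where both probe averages lay inside it and 0 spots of the dimmer and 1 of the brighter probe lay above it. It was -1.38 to 6.49 on ARM replicate 3, where 2 of 8 dimmer and 6 of 8 brighter spots lay above it, though all were below the brightest negative control spot, 11.8. On ARM replicate 1 it was -2.36 to 5.87, and all 8 spots of both probes lay above it, those of the dimmer probe too, which the software did not mark as well above background. miR-122-5p was therefore measured on 1 of 3 ARM arrays, and on the other two its signal was at or near that of negative control spots.

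**Figure D1:**
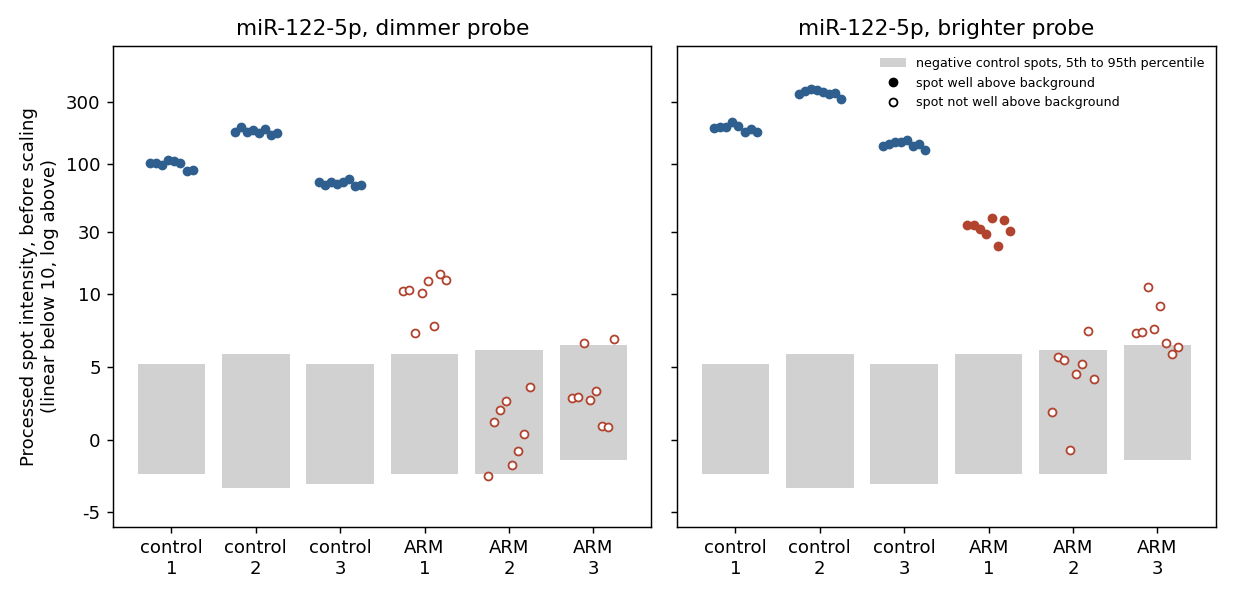
Processed intensity of every miR-122-5p spot by array, for the dimmer (left) and the brighter probe (right), on an axis that is linear below 10 and logarithmic above. Filled points are spots well above background, open points are not, and grey bands span the 5th to 95th percentile of the negative control spots. All 48 control spots lie far above the bands, ARM replicate 1 lies between, and ARM replicates 2 and 3 lie in or just outside the bands.

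Raw signals, before any correction, showed the same order. The mean pixel intensity of the spots ran from 58.8 to 98.9 over the ARM arrays and from 130 to 441 over the control arrays, while the local background beside them was 21 to 31 and 22 to 34. The groups did not overlap in raw intensity, and their local backgrounds did. The software's own summary over both probes (total gene signal) was 156, 282 and 115 in the controls (replicates 1, 2 and 3, in that order here and below) and 23.0 in ARM replicate 1. ARM replicates 2 and 3 were listed at 0.1, the value the software gave to a miRNA it did not detect.

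After scaling between arrays and averaging the 2 probes on the log2 scale, the level of miR-122-5p was 6.82, 7.74 and 6.74 in the controls and 4.44, 1.09 and 2.45 in the ARM samples. Every ARM sample was below every control sample, and the gap between the highest ARM and the lowest control level was 2.30 on the log2 scale. The highest ARM level, that of replicate 1, averages the detected brighter probe with the dimmer probe, which was not well above background there, so the gap is no exact fold. Groups that did not overlap, with ARM lower, were seen for 22.6% of the 230 miRNAs tested, and nothing is read from that share, since this contrast chose the miRNA. The ARM mean was 2.66 ± 1.69 and the control mean 7.10 ± 0.55 (SD of log2 levels, n = 3 each). The difference, ARM minus control, was -4.44 (SE 0.77), and the median difference of all 230 tested miRNAs was 0.17. The ARM samples spread over 3.35 on the log2 scale and the controls over 1.00. The ARM spread runs from replicate 1, at 4.44, to replicates 3 and 2, at 2.45 and 1.09. On replicates 2 and 3 no spot was well above background, and there a small difference in signal is a large one in log2.

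Both probes showed the lower ARM level. The dimmer probe differed by -4.77 (ARM mean 1.84 ± 1.83, control mean 6.61 ± 0.54, SD of log2 levels). It was detected on 0 of 3 ARM arrays, so this size is not a measured fold. Set against the higher of its own ARM values and the lowest detected probe of each ARM array, it was 6.86-fold lower in ARM. This is no strict bound, since the lowest detected probe is not an upper limit for an undetected one. The brighter probe differed by -4.10 (3.48 ± 1.57 and 7.58 ± 0.57) and was detected on 1 of 3 ARM arrays. Within slide 1, without ARM replicate 3, the miRNA differed by -4.33 (SE 0.91), and the dimmer and brighter probes by -4.78 and -3.88.

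The direction held under all 18 other settings tried, which are not all separate fits, and the size depended on how low signals were treated. It was -3.40 (SE 0.40) when scaled signals were floored at 10 in place of 1, which puts ARM replicates 2 and 3 at the floor. With the normexp background correction, which adds an offset of 50 to every spot, it was -1.38 (SE 0.21), and the ARM levels became 6.53, 6.15 and 6.17 against 7.43, 8.13 and 7.44 in control. With the total gene signal it was -5.77 (SE 1.36). Leaving out 1 array at a time gave -5.33 without ARM replicate 1, the array on which the miRNA was detected, and -3.65 without ARM replicate 2, the array with the lowest level. Without any 1 control array it lay between -4.62 and -4.12. Slide as a block, within slide 1 and without ARM replicate 3 are the same fit, since that array was alone on its slide. Replicate number as a block cannot move the difference, since each number occurs once in each group.

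**Figure D2:**
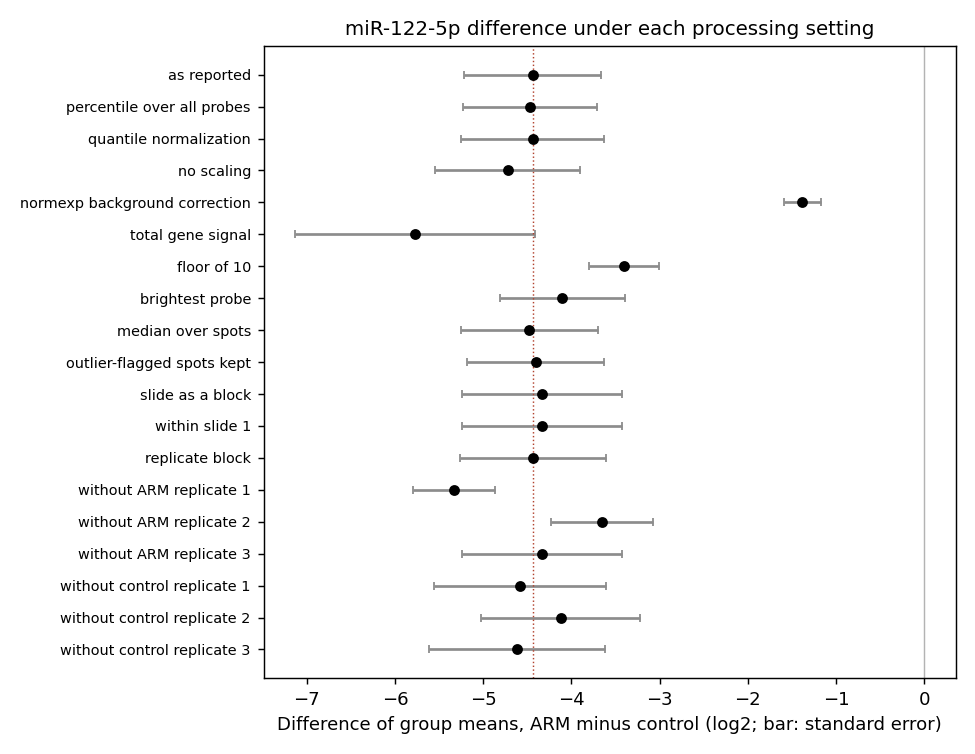
Difference in miR-122-5p level, ARM minus control (x axis, log2), under each processing setting (y axis); bars are standard errors from the fit, and the dotted line is the value as reported, -4.44. All points lie below 0, with normexp background correction the nearest to 0 at -1.38 and the total gene signal the farthest at -5.77.

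The other products of the locus were at background in both groups. miR-122-3p, the arm opposite miR-122-5p in the hairpin, had 0 of 96 spots well above background, with probe averages between -0.29 and 3.57. miR-3591, read from the opposite strand, also had 0 of 96, with averages between -2.39 and 4.95. The control arrays, on which miR-122-5p was bright, were no exception. Neither was detected on any array, and neither entered the tests. A pair of arms of which 1 is seen was common on these arrays: of 281 precursor names with both arms present, 56 had the 5p arm detected on all control arrays and the 3p arm on none of the 6, as Mir122 did, 56 had the reverse and 16 had both arms on all control arrays.

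Other miRNAs of the liver list did not share this pattern. The list held 7 miRNAs, chosen with earlier results of these data known, and 3 of them were tested, miR-122-5p included. miR-192-5p and miR-194-5p, which hepatocytes and intestinal epithelium both express under hepatocyte nuclear factors, were detected on all 6 arrays. The level of miR-192-5p (log2) was 6.80, 8.81 and 8.55 in the controls and 9.41, 9.74 and 9.00 in the ARM samples. Its groups did not overlap, ARM being above control, as for many other tested miRNAs, such as miR-17-5p, miR-20a-5p and miR-21-5p. Nothing is read from this separation. The difference was 1.33 (SE 0.52, limma, adjusted p = 0.104), which did not pass the threshold of 0.05. The level of miR-194-5p was 5.19, 7.07 and 6.90 in control and 7.57, 8.00 and 7.52 in ARM, a difference of 1.31 (SE 0.48, limma, adjusted p = 0.0925) that did not pass either. Control replicate 1 was the lowest for both, and without it the differences were 0.70 and 0.71. Within slide 1 they were 1.52 and 1.40 and did not pass (limma, adjusted p = 0.135 and 0.142). Over all tested miRNAs 13.5% passed the test, 11.3% lower and 2.17% higher in ARM, and of these 2 none did.

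The remaining liver miRNAs gave no second marker to set beside miR-122-5p. miR-148a-3p, abundant in adult liver, lay at the floor on all 6 arrays. miR-802-5p and miR-802-3p, from a precursor expressed in liver, pancreas and intestine, were well above background on none. The summed scaled signal of the 6 liver miRNAs other than miR-122-5p was 153 to 588 in control and 703 to 1117 in ARM, nearly all of it from the miRNAs shared with gut epithelium. The name hepatocyte thus rests on miR-122-5p alone, and the arrays do not show which cells, or whether blood plasma, held it.

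**Figure D3:**
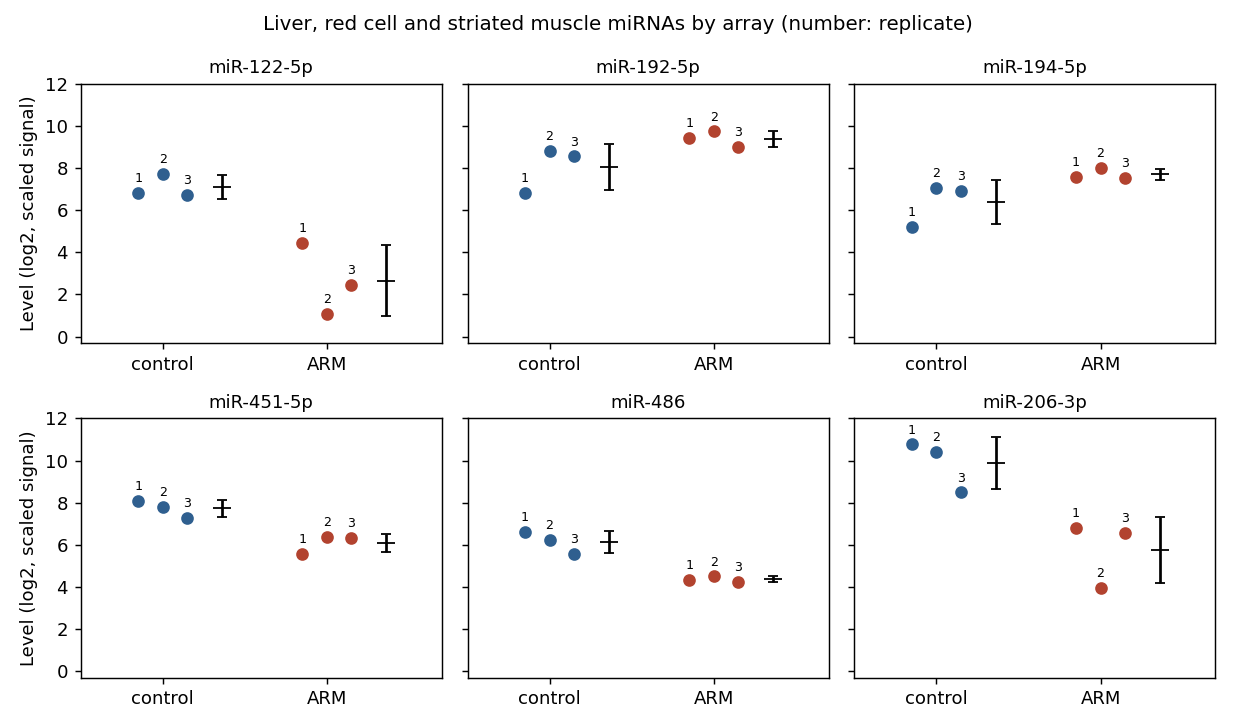
Level (log2 of scaled signal) of miR-122-5p, the 2 other tested liver miRNAs, the 2 tested red cell miRNAs and the striated muscle miR-206-3p in each array, with replicate numbers, and the mean and SD of each group (n = 3). miR-122-5p, miR-451-5p, miR-486 and miR-206-3p lie lower in every ARM array than in every control array, and miR-192-5p and miR-194-5p lie higher. Vertical positions are comparable within a panel, not between panels, since probes differ in response.

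Red cell miRNAs fell in ARM beside miR-122-5p, by a smaller amount. Both tested members of the erythroid list of 4 passed, against 11.3% of all tested miRNAs lower in ARM, and their median difference was -1.71 against 0.17 for all tested. miR-451-5p, which is cut by Argonaute 2 and abundant in red cells, had levels of 8.08, 7.82 and 7.29 in the controls and 5.59, 6.37 and 6.31 in the ARM samples. It fell by 1.64 (SE 0.30, limma, adjusted p = 0.0330). miR-486, made within the ankyrin 1 gene, had levels of 6.63, 6.22 and 5.57 in control and 4.35, 4.51 and 4.23 in ARM. It fell by 1.78 (SE 0.28, limma, adjusted p = 0.0330). Both are called red cell miRNAs by the list alone, and which cells of the pieces held them was not tested. The order of arrays differed from that of miR-122-5p: control replicate 2 was the highest for miR-122-5p and control replicate 1 for both red cell miRNAs, and ARM replicate 1, the highest ARM array for miR-122-5p, was the lowest for miR-451-5p.

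miR-144-3p and miR-144-5p, made from the same transcript as miR-451, were not tested, the first detected on no array and the second on 1 control array. The summed signal of the erythroid list was 212 to 379 in control and 73.8 to 113 in ARM. Within slide 1 the 2 tested miRNAs differed by -1.75 and -1.71, and neither passed (limma, adjusted p = 0.0607 for both). Neither passed without control replicate 1 or 2 (adjusted p = 0.129 and 0.0990). With normexp background correction the differences were -1.01 and -0.59, both past the threshold. The part of blood in the level of miR-122-5p was not tested.

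Among markers of other cells that a piece could hold, only the striated muscle list had members that passed the test. Of its 8 miRNAs 5 were tested and 4 fell (11.3% of all tested miRNAs were called lower), and the list's summed signal was 805 to 3494 in control and 114 to 272 in ARM. miR-208a-3p and miR-208b-3p, which lie within myosin heavy chain genes, were at the floor on all arrays. Intestinal epithelial miRNAs (9 of 9 tested) had 0 calls, against 13.5% of all tested miRNAs called in either direction, a median difference of 1.03 and a summed signal of 513 to 1481 in control and 1668 to 2659 in ARM. Of the pancreas list, miR-216a-5p and miR-216b-5p were at the floor on all arrays and miR-217-5p was detected on none, which leaves miR-375-3p, shared with gut endocrine cells, as the only tested member of 4. The lists of smooth muscle, leukocytes, neural cells, endothelium and mesenchyme, with 11 tested miRNAs between them, had no member past the test, and their median differences lay between -0.69 and 0.56. The neural median, -0.69, is that of 2 miRNAs that differ, miR-128-3p at -1.395 (SE 0.40, limma, adjusted p = 0.058) and miR-212-3p at 0.01. The part of any of these cell types in the difference of miR-122-5p was not tested.

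The 3 miRNAs whose pattern over the 6 arrays was closest to that of miR-122-5p belonged to the striated muscle list, of which 5 were tested. Closeness was measured as the root mean square distance between log2 levels, each centred on its own mean, over the 6 arrays. It favours miRNAs with a difference of like size between the groups. Of the tested miRNAs only 4 had a difference below -2, miR-122-5p and these 3. Their closeness thus largely restates the group difference by which miR-122-5p was chosen, and no shared source is read from it. The median distance over the 229 other tested miRNAs was 2.53. miR-1-3p, of cardiac and skeletal muscle, was the closest at 0.83, with levels of 7.98, 7.81 and 6.02 in the controls and 4.50, 2.42 and 4.03 in the ARM samples. miR-206-3p, of skeletal muscle, followed at 0.84, with levels of 10.76, 10.41 and 8.49 in control and 6.79, 3.97 and 6.55 in ARM. miR-133b-3p, from the same transcript as miR-206, came next at 1.24, with levels of 10.41, 10.10 and 8.34 in control and 6.47, 5.93 and 6.95 in ARM.

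These 3 muscle miRNAs differed by -3.62 (SE 0.68), -4.11 (SE 0.87) and -3.16 (SE 0.55), and passed the test (limma, adjusted p = 0.0330, 0.0385 and 0.0330). They did not pass within slide 1 (adjusted p = 0.0607 for all 3), where they differed by -3.81, -4.50 and -3.41, nor without control replicate 1 or 2 (adjusted p between 0.0990 and 0.129). With the total gene signal miR-1-3p differed by 1.71, opposite in sign (limma, adjusted p = 0.117), and with normexp background correction by -1.45. ARM replicate 2 was the lowest array for all 3, as for miR-122-5p. For miR-122-5p the order of ARM replicates 2 and 3 is one of values not well above background. With signals floored at 10 both had a level of 3.32. The distances above use these values too. Among controls they had control replicate 3 well below the others, whereas miR-122-5p was about equal in control replicates 1 and 3, at 6.82 and 6.74.

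miR-3584-5p (1.67) and miR-503-5p (1.68), a relative of the miR-15/16 family, were the closest after these. The former differed by -1.55 (SE 0.86, limma, adjusted p = 0.200) with overlapping groups. That size rests on single arrays: it was -0.96 within slide 1, without ARM replicate 3, and -0.86 without control replicate 2. With normexp background correction it was -0.999. The latter fell by 1.54 (SE 0.30, limma, adjusted p = 0.0337), and did not pass within slide 1 (-1.68, adjusted p = 0.0607), with the total gene signal (-1.08) or without ARM replicate 2, control replicate 1 or control replicate 2. With normexp background correction it differed by -0.68. miR-486 came next, at 1.72, and the muscle list's miR-1b lay farther off, at 1.74.

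**Figure D4:**
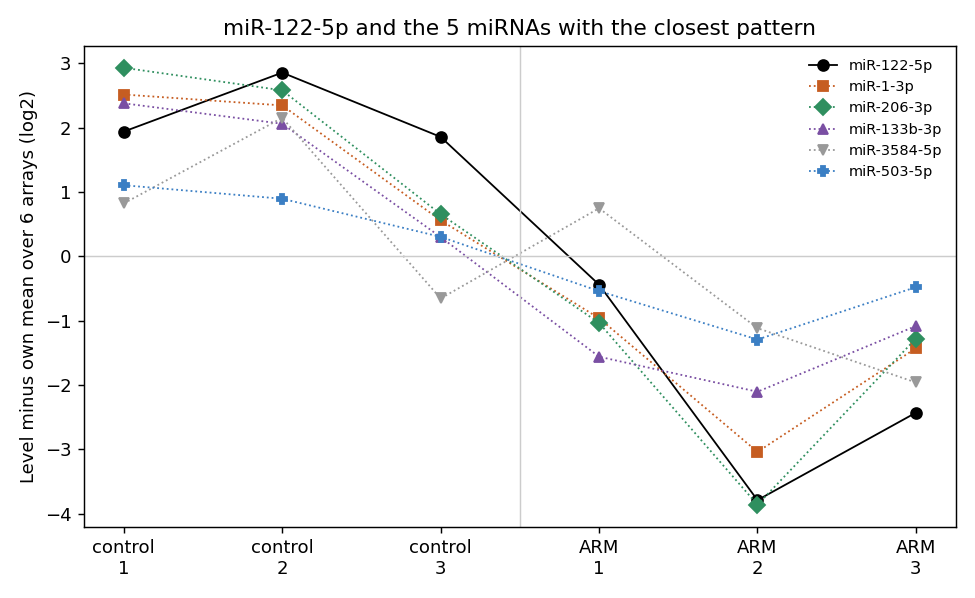
Level of miR-122-5p (black, solid line) and of the 5 miRNAs closest to it, each minus its own mean over the 6 arrays (y axis, log2), by array; lines only help to follow a miRNA, since replicates have no order. The muscle miRNAs miR-1-3p, miR-206-3p and also miR-133b-3p share the low ARM arrays, and control replicate 3 is where they part most from miR-122-5p among the controls.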

How the data were processed

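The authors deposited spot intensity from Agilent Feature Extraction 10.7.1.1, which per the file headers corrected background and spatial trends and did not scale arrays to each other. Their value table differed from it by at most 0. Outlier-flagged spots were dropped and the spots of a probe averaged. A detected probe had a share of spots well above background of 0.5 or more on that array. The 300 probes detected on every array gave each array's 75th percentile, by which it was scaled to the geometric mean of the 6. Signals were then floored at 1 and log2-transformed, and the probes of a miRNA averaged. Of 758 miRNAs, 230 had a probe detected on at least 3 arrays and were tested by limma 3.58.1 (R 4.3.3, Benjamini-Hochberg, threshold 0.05). miR-122-5p passed this filter through 3 control arrays and 1 ARM array. Groups and replicate numbers came from the sample titles. The miRNA, lists and tests were chosen with earlier results of these data known. The rule named the miRNA, other miRNAs of its locus or seed, its list, the 5 closest patterns and leading members of other lists, of which most are given as counts. Precision is limited by how few arrays there are.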

Additional observations from a re-analysis of the deposited data

How the results depend on the processing

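The miR-122-5p difference of -4.44 kept its sign under all 18 alternatives. Of these, slide as a block, within slide 1 and without ARM replicate 3 are the same fit, here and in the counts below. The difference moved by more than the replicate SD to -1.38 with normexp background correction and to -5.77 with the total gene signal. It ranged from -5.33 to -3.65 when 1 array was left out. The normexp setting adds an offset of 50, which lifts values near background; the total gene signal lists ARM replicates 2 and 3 at 0.1, so both lie at the floor, a level of 0, in place of 1.09 and 2.45. The detected arrays stayed at 1 of 3 ARM and 3 of 3 control with spot shares of 0.25 or 0.75. The count of tested miRNAs passing limma was 31 as reported, 16 with normexp, 14 with the total gene signal, 87 with array weights and 0 with slide as a block, within slide 1 or without a detection filter (78, 78 and 134 with an unadjusted p under 0.05). Leaving out 1 array gave 0 to 92: 10 without ARM replicate 1, 6 without ARM replicate 2, 0 without ARM replicate 3 (78 unadjusted), control replicate 1 (62) or control replicate 2 (73), and 92 without control replicate 3. With replicate number as a block, 0 miRNAs passed (limma, 73 unadjusted). The miR-122-5p difference stays at -4.44 there by design, since each number occurs once per group, and its SE was 0.83. Deviations of same-numbered samples correlated at -0.28 to -0.07, which gave no sign of pairing. With 3 samples per group this cannot settle whether equal numbers share a processing step. The calls split into 5 higher and 26 lower as reported, 1 and 30 without scaling, and 10 and 28 with quantile normalization. The median difference of all tested miRNAs was 0.17, and -0.13 without scaling. miR-1-3p reversed to 1.71 with the total gene signal (cause not tested). Low signal over background limits every ARM level of miR-122-5p, that of replicate 1 through its dimmer probe.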
